A study of Homo sapiens with 6 samples.

Results

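The 10 genes GAS5, ZFAS1, SNHG1, SNHG5, SNHG6, SNHG8, SNHG12, SNHG15, SNHG16 and EPB41L4A-AS1, which make long non-coding RNAs and host small nucleolar RNAs (snoRNAs) in their introns, were followed in A549 cells given a guide RNA against H2AC19 and in A549 cells given a control guide. The genes were taken by name from the row IDs of the deposited table, and all 10 were found among its 62700 rows. A549 cells, a lung adenocarcinoma line of human origin with epithelial character, were grown in RPMI-1640 with serum in both groups. The sgH2AC19 group holds 3 libraries of cells that the labels describe as knockout derivatives, with the guide as their genotype, and the sgControl group holds 3 libraries of cells with a control guide, labelled wild type. H2AC19 encodes a histone H2A, and the title of the series names its role in angiogenesis and in the progression of this cancer as the question. The labels do not say whether a group is 1 clone or whether the replicates were separate cultures, so all p-values refer to the spread among the libraries alone, and that spread may be technical.

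A snoRNA host gene is transcribed by RNA polymerase II, and its snoRNAs are trimmed out of the excised introns. The snoRNAs then guide 2′-O-methylation (box C/D) or pseudouridylation (box H/ACA) of ribosomal RNA. Many hosts start, like ribosomal protein genes, with a 5′ terminal oligopyrimidine (TOP) tract, a C followed by further C and T bases, which couples translation of such RNAs to mTORC1 through LARP1. The spliced host RNA usually has short open reading frames that end early, so it is a well-known substrate of nonsense-mediated decay (NMD) and is stabilised when translation stops. GAS5 was named for its rise in growth-arrested cells.

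The name of the group was first set against the annotated starts. A tract was counted where a transcript in GENCODE 29 (GRCh38) began with C followed by at least 4 further C or T. At least 1 such transcript was annotated for 8 of the 10 genes, and 23 of their 136 transcripts began so, against 2.41% of all 206694 transcripts. By gene, the share over all of GENCODE 29 was 6.58%, although the hosts have more annotated transcripts than most genes. The 8 were GAS5, ZFAS1, SNHG1, SNHG5, SNHG6, SNHG8, SNHG12 and SNHG16. SNHG15 and EPB41L4A-AS1 had none among 10 and 4 transcripts, so a TOP start was not seen in these annotations for them. The first 20 bases of 1 transcript are shown for each of 9 genes because the tract is what the group is named for, with the leading run of C and T in capitals. Where a gene had a tract, the start shown was chosen for it. In the genes shown, such starts belonged to a minority of the transcripts, from 1 of 25 in SNHG1 to 3 of 10 in ZFAS1 (6 of 29 in GAS5). The ZFAS1 start shown is that of 2 of these 3. SNHG6, which is not shown, had such starts in 3 of 5 transcripts.
GAS5 (chr1:173867970-173867989, minus strand): CTTTTCgaggtaggagtcga
SNHG16 (chr17:76557769-76557788, plus strand): CTTTTCgaggtcggccgcgt
SNHG5 (chr6:85678714-85678733, minus strand): CTTTTacgtcggccttcgcg
ZFAS1 (chr20:49278642-49278661, plus strand): CTTTCgcgtctgcggtgccc
SNHG8 (chr4:118278758-118278777, plus strand): CTTTCacattcgggaagcgt
SNHG12 (chr1:28581854-28581873, minus strand): CCTTTCTCCCCgccgcattc
SNHG1, internal start (chr11:62855460-62855479, minus strand): CTCCTgtctgcaggatttac
SNHG15 (chr7:44986815-44986834, minus strand): TCCactgagttgacacgcag
EPB41L4A-AS1 (chr5:112160526-112160545, plus strand): Tgtcgggtcccaaaatacgt

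GAS5 and SNHG16 shared their first 11 bases. The only SNHG1 transcript that met the rule starts inside the gene. At the SNHG1 start given by RefSeq (GRCh38.p14, chr11:62855866-62855885, minus strand) the first bases are CTCatttttctactgctcgt, a pyrimidine run that an A interrupts after 3 bases. The RefSeq start of GAS5 (chromosome 1, base 173869045, minus strand) lies upstream of the GENCODE 29 gene. Its RefSeq promoter thus does not cover the GAS5 start shown above. RefSeq promoters, 250 bases before to 50 bases after the start, were matched for 8 of the 10 genes. In 3 of them, those of ZFAS1, SNHG5 and SNHG12, the sequence read from the start met the rule (in SNHG12 the run begins 1 base before it), as it did in 4.07% of all 35116 promoters, and within 20 bases of the start a tract was found in 6 of 8 (not in GAS5 or EPB41L4A-AS1) and in 50.98% of all promoters. The same 3 promoters held the word TATATAA, read on the gene's strand in the 50 bases before the start, which 0.683% of all promoters held there; this word was chosen after the sequences had been seen. It is in capitals in these 30-base windows.
SNHG12 (chr1:28581877-28581906, minus strand): gccTATATAAgctcttgctcgcggcttcag
SNHG5 (chr6:85678739-85678768, minus strand): ggcTATATAAggagctactggctgcgcact
ZFAS1 (chr20:49278608-49278637, plus strand): ggtTATATAAgggaggttcaggaagccatt

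The values are FPKM, the reads of a gene divided by its length and by the depth of the library. Because low values step by 1 read, the library totals could be worked out; they were 35681162 to 45738439 in the sgH2AC19 libraries and 36255807 to 40570759 in the sgControl libraries. The host genes had between 409 reads (EPB41L4A-AS1 in sgH2AC19 replicate 3) and 5761 reads (SNHG1 in sgH2AC19 replicate 1). If each read was an independent count, counting error alone was at most 4.94% of a value. It was larger if mates were counted singly, which was not tested. The targeted gene H2AC19 and its near-identical copy H2AC18 were listed at 0 FPKM in each library, so neither checks the labels. In a principal component analysis of all genes tested the second component (18.2% of the variance) placed sgH2AC19 replicate 3 at −16.0 and the other two sgH2AC19 libraries at 8.09 and 8.32. Genes of the mitochondrial genome held 32.5% of its FPKM, against 31.8% and 30.7% in the other two sgH2AC19 libraries and 29.6% to 31.1% in the sgControl libraries. The epithelial markers KRT8, KRT18, EPCAM, CDH1 and CLDN1 summed to 772 to 792 FPKM in sgH2AC19 and 586 to 620 FPKM in sgControl, with 4 of the 5 called up, against 12.0% of all genes tested. Sums of 5 endothelial markers were 0.179 to 0.197 FPKM in sgH2AC19 and 0.0975 to 0.147 in sgControl, of 5 fibroblast markers 1.46 to 1.64 and 0.658 to 0.791, and of 5 leukocyte markers, among which CD3E was at 0 in all libraries, 0.0487 to 0.105 and 0.00715 to 0.0755. The 1 fibroblast marker that passed the filter was called up too (log2 fold change 0.54). It reached 1 FPKM in sgH2AC19 only, so the filter left it no way to be called down. The part of these marker levels in the results was not tested.

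SNHG16 and SNHG6 fell in sgH2AC19, to 11.1 ± 0.871 FPKM against 14.8 ± 0.182 in sgControl and to 14.4 ± 0.992 FPKM against 17.7 ± 0.723 in sgControl (SD, n = 3 each), differences of −25.2% and −18.5%. The other 8 did not pass the test, and SNHG1 had the only mean that was higher in sgH2AC19. All 10 passed the filter of at least 1 FPKM in at least 3 libraries, and none of them through 1 group alone. The count of 2 down and 0 up (adjusted p below 0.05 by Benjamini-Hochberg, limma on log2(FPKM + 1)) stood against 11.0% down and 12.0% up (23.1% in all) of the 12871 genes tested. At an unadjusted p below 0.05, 3 of the 10 were lower and 0 higher by limma, against 18.9% lower and 18.6% higher of all genes tested. Their median log2 fold change was −0.11, against −0.01 over all genes tested. In 5 of the 10, SNHG16, SNHG6, SNHG15, GAS5 and SNHG5, all sgH2AC19 values were below all sgControl values, and in 0 they were above. Over all genes tested the groups did not overlap in 43.2%, with sgH2AC19 lower in 21.7% and higher in 21.5%. In bulk RNA, fewer cells with a transcript and less of it in each cell cannot be told apart.

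**Figure D1:**
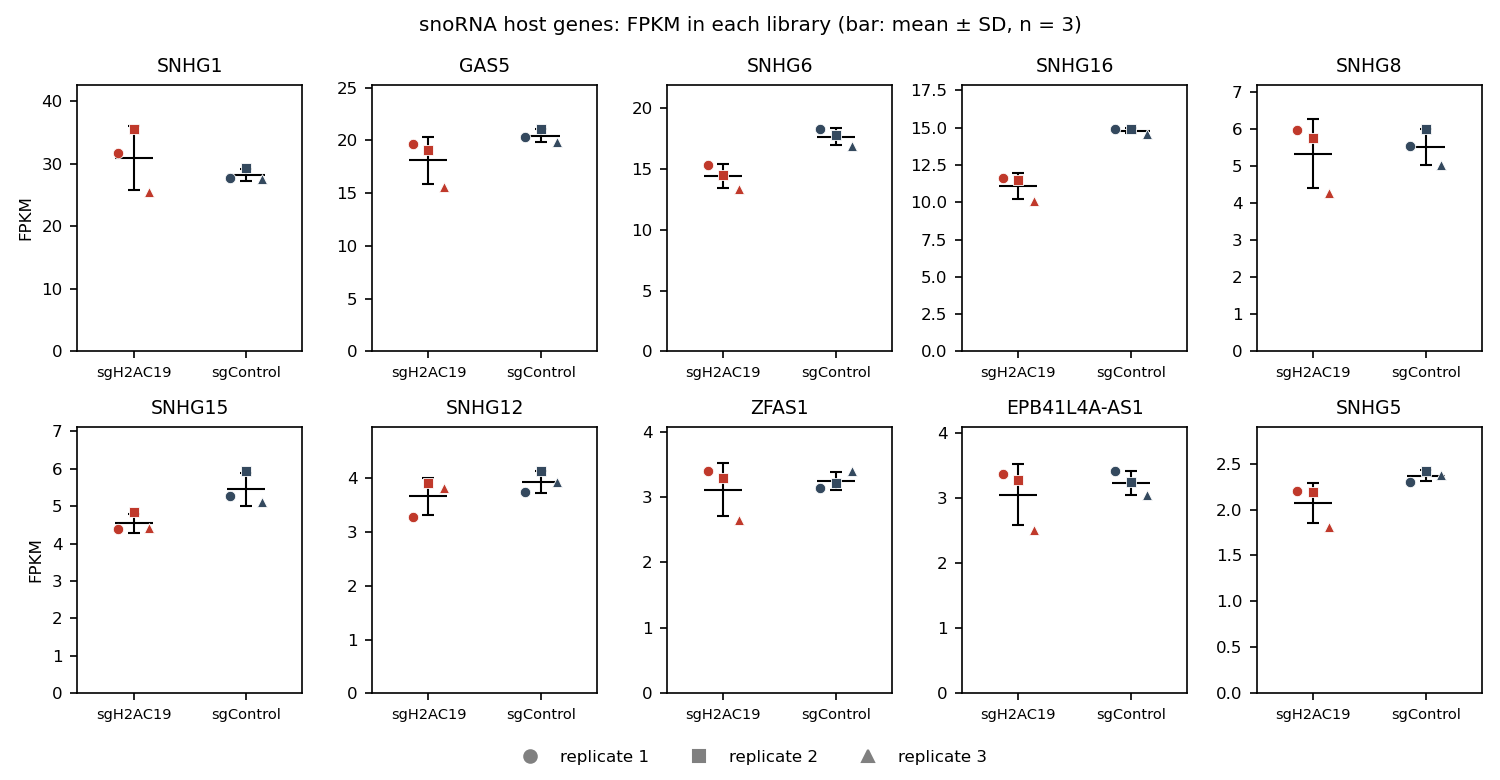
FPKM of each of the 10 host genes (y axis, from 0) in the 3 sgH2AC19 libraries (left, red) and the 3 sgControl libraries (right, blue), with marker shape for the replicate number and a bar for mean ± SD. The groups are apart for SNHG6, SNHG16, SNHG15, GAS5 and SNHG5, and sgH2AC19 replicate 3 is the lowest of the 6 libraries for 8 genes.

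Among the hosts of box C/D snoRNAs, SNHG16 (ENSG00000163597), which carries SNORD1A, SNORD1B and SNORD1C, changed most. In replicate order it was at 11.6, 11.5 and 10.1 FPKM in sgH2AC19, against 14.9, 14.9 and 14.6 FPKM in sgControl. Every sgH2AC19 library lay below every sgControl library, and the log2 fold change was −0.39 (SE 0.0604, 95% confidence interval −0.53 to −0.25, limma adjusted p = 0.00531). The sgControl values spread by 1.23% of their mean, the tightest of the 10 genes, and those of sgH2AC19 by 7.87%. SNHG16 kept its call under each of the 13 alternatives tried, with log2 fold changes between −0.43 and −0.33 and adjusted p between 0.000737 and 0.0263.

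SNHG6 (ENSG00000245910), the host of SNORD87, was at 15.3, 14.5 and 13.4 FPKM in sgH2AC19, against 18.3, 17.8 and 16.9 FPKM in sgControl. The groups were again apart, and all 3 sgH2AC19 libraries contributed to the difference. Its log2 fold change was −0.28 (SE 0.0604, interval −0.42 to −0.14, limma adjusted p = 0.0177). Leaving out sgControl replicate 1 or 2 ended this call (limma adjusted p = 0.0669 and 0.0638), as did testing every gene above 0 FPKM (0.0584).

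GAS5 (ENSG00000234741, chromosome 1, 173863900 to 173868882, minus strand), which carries a long series of box C/D snoRNAs, was at 19.7, 19.1 and 15.6 FPKM in sgH2AC19, against 20.4, 21.1 and 19.9 FPKM in sgControl. All sgH2AC19 values were below all sgControl values, but replicate 1 lay only just under the lowest sgControl library and the distance rested on replicate 3. The log2 fold change of −0.17 (interval −0.37 to 0.03) did not pass (limma adjusted p = 0.185) and was −0.07 without sgH2AC19 replicate 3. SNHG5 (ENSG00000203875, chromosome 6, 85660950 to 85678748, minus strand), the host of SNORD50A and SNORD50B, had a like pattern at a lower level, with 2.20, 2.19 and 1.82 FPKM in sgH2AC19, against 2.30, 2.42 and 2.38 FPKM in sgControl. The groups did not overlap, and its log2 fold change of −0.14 (interval −0.30 to 0.03, limma adjusted p = 0.206) did not pass and was −0.08 without sgH2AC19 replicate 3.

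SNHG1 (ENSG00000255717, chromosome 11, 62851988 to 62855914, minus strand), whose introns hold a run of box C/D snoRNAs from SNORD22 to SNORD31, had the highest deposited FPKM of the 10. It was at 31.7, 35.6 and 25.6 FPKM in sgH2AC19, against 27.7, 29.3 and 27.6 FPKM in sgControl. Replicates 1 and 2 of sgH2AC19 were above all sgControl libraries and replicate 3 was below all of them. The log2 fold change was 0.12 (interval −0.14 to 0.37, limma adjusted p = 0.469) over 6 libraries and 0.24 (SE 0.0593, interval 0.10 to 0.39, limma adjusted p = 0.0274) without sgH2AC19 replicate 3, where it was called up. It was 0.014 (limma adjusted p = 0.932) without sgH2AC19 replicate 2. In the fit without replicate 3, 14.1% of 12681 genes tested were called up.

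ZFAS1 (ENSG00000177410), an antisense neighbour of the ZNFX1 promoter that carries the SNORD12 family, was at 3.40, 3.29 and 2.65 FPKM in sgH2AC19, against 3.13, 3.21 and 3.39 FPKM in sgControl. The groups overlapped, and the log2 fold change of −0.05 had an interval of −0.24 to 0.14 (limma adjusted p = 0.688). Without sgH2AC19 replicate 3 it was 0.03.

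Among the hosts of box H/ACA snoRNAs, SNHG15 (ENSG00000232956, chromosome 7, 44983023 to 44986961, minus strand), the host of SNORA9, was at 4.37, 4.84 and 4.41 FPKM in sgH2AC19, against 5.28, 5.94 and 5.12 FPKM in sgControl. No sgH2AC19 library reached the lowest sgControl library, and here replicate 3, close to replicate 1, was not the lowest. The log2 fold change was −0.22 (SE 0.066, interval −0.37 to −0.06) and its limma adjusted p of 0.0526 was just above the threshold. It was called with voom on the recovered reads (log2 fold change −0.26, adjusted p = 0.0425) and with the replicate number as a block (limma adjusted p = 0.0401).

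SNHG8 (ENSG00000269893, chromosome 4, 118278709 to 118279823, plus strand), the host of SNORA24, was at 5.97, 5.74 and 4.25 FPKM in sgH2AC19, against 5.53, 5.99 and 5.02 FPKM in sgControl. The groups overlapped, with a log2 fold change of −0.05 and the widest interval of the 10 genes, −0.32 to 0.22 (limma adjusted p = 0.784). EPB41L4A-AS1 (ENSG00000224032), the host of SNORA13, was at 3.36, 3.27 and 2.51 FPKM in sgH2AC19, against 3.41, 3.24 and 3.05 FPKM in sgControl. Its groups overlapped too, with a log2 fold change of −0.07 (interval −0.29 to 0.15, limma adjusted p = 0.618). Without sgH2AC19 replicate 3 the log2 fold changes of SNHG8 and EPB41L4A-AS1 were 0.08 and 0.03.

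SNHG12 (ENSG00000197989, chromosome 1, 28578538 to 28583132, minus strand) carries both classes, the box H/ACA SNORA44, SNORA61 and SNORA16A and the box C/D SNORD99. It was at 3.27, 3.92 and 3.81 FPKM in sgH2AC19, against 3.74, 4.13 and 3.92 FPKM in sgControl. Only replicate 1 lay below the sgControl range. The log2 fold change was −0.08 (interval −0.24 to 0.08, limma adjusted p = 0.437), and −0.019 without sgH2AC19 replicate 1.

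**Figure D2:**
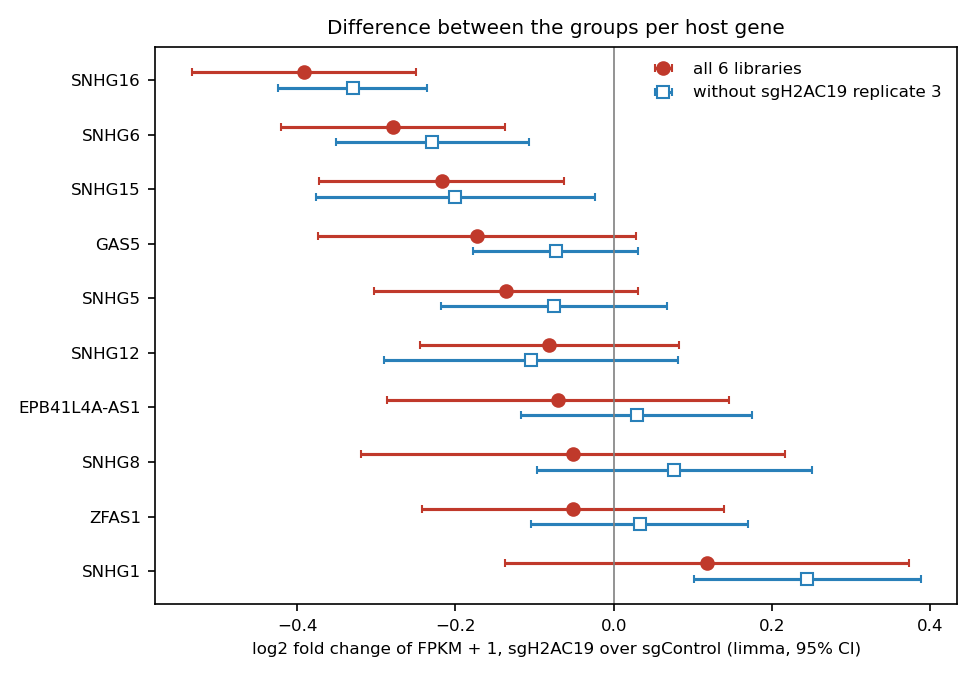
Log2 fold change of FPKM + 1, sgH2AC19 over sgControl (x axis), with its 95% confidence interval from limma, for each host gene (y axis), over all 6 libraries (filled red circles) and without sgH2AC19 replicate 3 (open blue squares). The intervals of SNHG16, SNHG6 and SNHG15 lie below 0 in both fits, and that of SNHG1 lies above 0 only without replicate 3.

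Within sgH2AC19, replicate 3 stood low. It was the lowest of the 6 libraries for 8 of the 10 host genes, all but SNHG12 and SNHG15, and for 27.7% of all genes tested. For the same 8 it was below both other sgH2AC19 libraries, which held for 47.1% of all genes tested. On the log2(FPKM + 1) scale the host genes stood a median of 0.22 below the mean of replicates 1 and 2 in replicate 3 (a difference of −0.22), against −0.03 over all genes tested. The difference was −0.38 for SNHG8 and SNHG1 and −0.30 for GAS5 and EPB41L4A-AS1, and 0.07 for SNHG12. In the related lists described below, replicate 3 was also often the lowest of the 6 libraries. This held for 34 of 41 protein-coding snoRNA hosts, 10 of 14 other non-coding hosts and 13 of 20 other TOP mRNAs. Summed over the 10 genes the level was 101, 104 and 84.0 FPKM in sgH2AC19 replicates 1 to 3, against 105, 108 and 102 FPKM in sgControl. Without replicate 3 the counts were 1 up (SNHG1) and 2 down (SNHG6 and SNHG16), where 13.0% of all genes tested were called down.

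**Figure D3:**
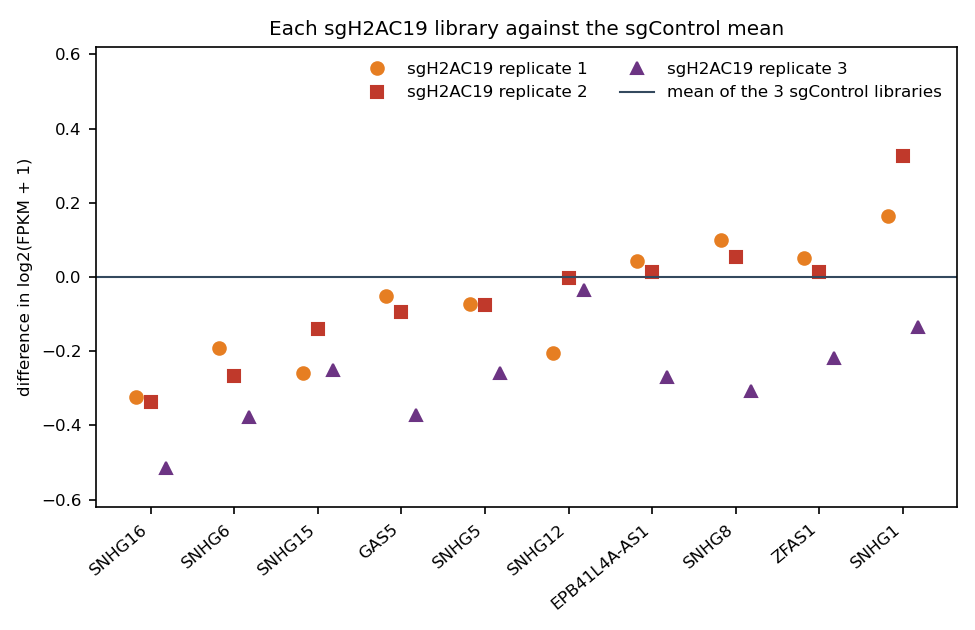
Difference in log2(FPKM + 1) between each sgH2AC19 library and the mean of the 3 sgControl libraries (y axis) for each host gene (x axis); circles, squares and triangles are replicates 1, 2 and 3 and the line at 0 is the sgControl mean. The triangles lie below 0 for all 10 genes, whereas replicates 1 and 2 lie on both sides.

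By level per kilobase, the deposited values put SNHG1 first in sgControl at 28.2 ± 0.991 FPKM, followed by GAS5 at 20.4 ± 0.612, SNHG6 at 17.7 ± 0.723 and SNHG16 at 14.8 ± 0.182 (SD, n = 3 each). SNHG8 at 5.51 ± 0.488 and SNHG15 at 5.45 ± 0.432 overlapped. SNHG12 at 3.93 ± 0.199 came next, ZFAS1 at 3.25 ± 0.134 and EPB41L4A-AS1 at 3.23 ± 0.181 overlapped, and SNHG5 was lowest at 2.37 ± 0.0596. This order depends on the gene lengths the authors divided by. The smallest length that turned the FPKM of all 6 libraries into whole reads was 12604 bases for SNHG5, 8315 for ZFAS1 and 6614 for SNHG8, against merged exons of 2806, 2243 and 923 bases in GENCODE 29. For SNHG12 both were 4266 bases, and for SNHG1, SNHG15 and SNHG16 they differed by factors of 1.06 to 1.08. Rescaled to the GENCODE 29 length, the sgControl mean of SNHG8 was 39.5 FPKM, the highest of the 10, ahead of SNHG6 at 35.8, SNHG1 at 29.8 and GAS5 at 27.8 FPKM. These values are uncertain both ways, since reads on the added part of a longer gene model are included, and since the length used by the authors may be a multiple of the smallest one that gives whole reads. A ratio of FPKM between the groups is the same under either length. The log2 fold changes given here are not, since 1 was added to each FPKM. With 0.1 added instead, that of SNHG5 was −0.19 in place of −0.14.

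**Figure D4:**
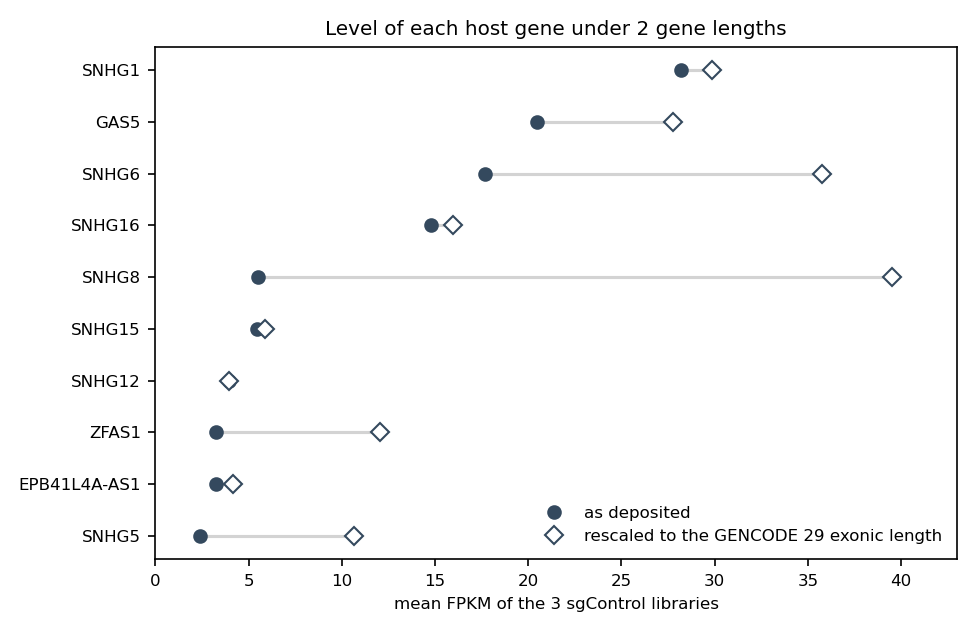
Mean FPKM of the 3 sgControl libraries (x axis, from 0) for each host gene (y axis), as deposited (filled circles) and rescaled to the exonic length in GENCODE 29 (open diamonds). SNHG8 moves furthest, from 5.51 to 39.5 FPKM, and SNHG12 does not move.

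Several host genes share exon bases with another gene on the opposite strand, and whether reads were counted by strand is not given in the sources used here, so reads of such pairs cannot be told apart. In GENCODE 29, EPB41L4A-AS1 (chromosome 5, 112160526 to 112164276, plus strand) shares 1659 of its 3344 exonic bases with EPB41L4A, which was at 0.961 ± 0.0107 FPKM in sgH2AC19 and 0.847 ± 0.0965 in sgControl. SNHG16 (chromosome 17, 76557766 to 76565348, plus strand) shares 1639 of 5362 with a protein-coding gene, ENSG00000284526, which was at no more than 0.0352 FPKM in any library. SNHG6 (chromosome 8, 66921684 to 66926398, minus strand) shares 365 of 1247 with MCMDC2, at 0.406 ± 0.0422 FPKM in sgH2AC19 and 0.215 ± 0.0855 in sgControl. ZFAS1 (chromosome 20, 49278178 to 49295738, plus strand) shares 249 bases with ZNFX1, which encodes a helicase-like protein and was called up (10.5 ± 0.053 FPKM in sgH2AC19 and 9.25 ± 0.410 in sgControl, log2 fold change 0.17, limma adjusted p = 0.0376), a call that held without 1 library only where that was sgH2AC19 replicate 3, and not over all genes above 0 FPKM or with the replicate number as a block. Of the other neighbours measured, SLC3A2, WDR74, TRNAU1AP, CCM2 and ZBTB37, none passed the test, with limma adjusted p from 0.0975 to 0.931 and log2 fold changes from −0.22 to 0.21. With voom on the recovered reads ZBTB37 was called down (−0.43, adjusted p = 0.00927) and CCM2 up (0.32, adjusted p = 0.0371).

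The snoRNAs themselves had few or no reads assigned to them in these mRNA libraries. Of the 34 snoRNA names listed for the 10 hosts, 10 had no row under that name, among them most of those in GAS5. In all, 23 rows lay inside their host in GENCODE 29, in 9 of the hosts, and 19 of these were at 0 FPKM in all 6 libraries. All 18 rows that overlap an annotated exon of the host were at 0. How reads shared by a snoRNA and a host exon were counted is not given, so these zeros cannot be read as absent snoRNAs. Of the 5 rows that lie in introns alone, 4 were above 0. Of these, SNORD99 in SNHG12 was at 3.25, 2.27 and 5.69 FPKM in sgH2AC19, against 4.10, 4.79 and 4.66 FPKM in sgControl, on 6 to 16 reads a library. SNORD12C in ZFAS1 was at 2.21, 0 and 2.96 FPKM in sgH2AC19, against 1.24, 1.42 and 2.49 FPKM in sgControl, on at most 10 reads. Neither passed the test (limma adjusted p = 0.417 and 0.81), and their intervals, −0.83 to 0.26 and −1.33 to 0.95 on the log2 scale, allow changes in either direction. Both depended on 1 library: SNORD99 was called down without sgH2AC19 replicate 3 (log2 fold change −0.56, limma adjusted p = 0.018), and SNORD12C had log2 fold changes of −0.57 without that library and 0.42 without sgH2AC19 replicate 2, neither called.

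Of 19 other non-coding snoRNA hosts listed, 14 were measured, and 1 fell and 0 rose by limma (2 lower and 0 higher at an unadjusted p below 0.05, against 18.9% and 18.6% of all genes tested). Their median log2 fold change was −0.07, and −0.0051 without sgH2AC19 replicate 3. The gene that fell was SNHG9, the host of SNORA78, at 0.718 ± 0.0706 FPKM in sgH2AC19 and 1.51 ± 0.0247 in sgControl (log2 fold change −0.55, SE 0.0738, limma adjusted p = 0.00332). It rested on 14 to 21 reads a library in sgH2AC19 and 34 to 38 in sgControl, and its log2 fold change was −0.98 with a pseudocount of 0.1 and −1.05 with voom. Since only its sgControl values reached 1 FPKM, the filter left it no way to be called up. The lowest library was sgH2AC19 replicate 3 for 10 of the 14.

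Protein-coding snoRNA hosts, most of them ribosomal protein genes, made up the longest list. Of 41 measured, 22 fell and 0 rose by limma (27 lower and 0 higher at an unadjusted p below 0.05), against 11.0% down and 12.0% up (18.9% and 18.6% at an unadjusted p below 0.05) of all genes tested, with a median log2 fold change of −0.16. All 22 were ribosomal protein genes, RACK1 or EEF1B2. None of the other kinds of host on the list, such as EEF2, EIF4A2, NCL, NOP56, DKC1 and HSPA8, passed the test. RPL27A was at 23.2 ± 0.713 FPKM in sgH2AC19 and 29.4 ± 0.309 in sgControl (log2 fold change −0.33, limma adjusted p = 0.00264), RPL7A fell by 0.26, RPS2 by 0.26 and RPS3 by 0.29 on the log2 scale. These genes have many processed pseudogenes, which can share their reads. Among 20 measured TOP mRNAs outside the classical ribosomal protein genes, 8 fell, 1 rose and 11 did not pass, with a median of −0.17. VIM, the intermediate filament protein vimentin, fell by 0.33, RACK1, a scaffold of the small ribosomal subunit, by 0.22 and NACA, a chaperone of nascent chains, by 0.21, while EIF3F, a subunit of initiation factor 3, rose by 0.30. The NACA call was lost in each fit without 1 sgControl library. RACK1, EEF1B2 and EEF2 are on both lists. Without sgH2AC19 replicate 3 the counts were 22 down and 1 up for the protein-coding hosts and 7 down and 1 up for the TOP mRNAs. The difference between these lists and the 10 non-coding hosts was not tested. Adding 1 to each FPKM shrinks the fold changes of low genes more, so medians of lists at unlike levels are not on equal terms.

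Genes of proteins that bind snoRNAs or assemble them into particles moved both ways, with 3 of 19 up, 5 down and 11 not passing by limma. Over all genes tested, 12.0% were up and 11.0% down. At an unadjusted p below 0.05 by limma, 3 of the 19 were higher and 5 lower, against 18.6% and 18.9% of all genes tested. NOLC1, a nucleolar chaperone of snoRNPs, was at 52.4 ± 0.762 FPKM in sgH2AC19 and 26.1 ± 0.624 in sgControl (log2 fold change 0.98, limma adjusted p = 8.8e-05). Its partner TCOF1, treacle, was at 8.25 ± 0.189 FPKM in sgH2AC19 and 5.55 ± 0.198 in sgControl (0.50, adjusted p = 0.0011 by limma). SNU13, the core protein that binds box C/D snoRNAs first, fell by 0.21 and PIH1D1, a subunit of the R2TP assembly complex, by 0.23 on the log2 scale. Both calls were lost in each of the 3 fits without 1 sgControl library, and that of PIH1D1 also without sgH2AC19 replicate 1 and over all genes above 0 FPKM.

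Genes of decay and of mTORC1 are set here beside the 23.1% of all genes tested that were called. Of 22 NMD, exon junction and decapping genes 2 rose, 0 fell and 20 did not pass by limma (2 higher and 3 lower at an unadjusted p below 0.05), with a median of −0.01. The decapping cofactor gene PNRC2 rose by 0.29 and the decapping enzyme gene DCP2 by 0.22 on the log2 scale, but neither call was firm. That of DCP2 ended in all 6 fits without 1 library, with both scalings and over all genes above 0 FPKM, and that of PNRC2 in 4 of the 6 and over all genes above 0 FPKM, holding only without sgH2AC19 replicate 1 or 3. UPF1, the central NMD helicase, did not pass (log2 fold change −0.05, limma adjusted p = 0.491). Of 16 genes with RNAs that NMD is known to degrade, 7 fell and 0 rose by limma (10 lower and 0 higher at an unadjusted p below 0.05), against 11.0% down and 12.0% up (18.9% and 18.6% unadjusted) of all genes tested, with a median of −0.18. Among them were the stress genes GADD45A, at 24.5 ± 4.44 FPKM in sgH2AC19 and 39.9 ± 3.82 in sgControl (−0.69, limma adjusted p = 0.0116), and UPP1, at 10.8 ± 1.31 FPKM in sgH2AC19 and 17.1 ± 2.11 in sgControl (−0.61, limma adjusted p = 0.00835), and the ribosomal protein genes RPL12 and RPL10A, of which RPL12 is also a listed snoRNA host. FPKM is given per gene, so the RNAs that NMD degrades cannot be told apart from the other RNAs of these 16 genes. Of 22 mTORC1 genes and TOP regulators 2 rose, 1 fell and 19 did not pass. MTOR itself was at 6.74 ± 0.0608 FPKM in sgH2AC19 and 5.58 ± 0.0993 in sgControl (0.23, limma adjusted p = 0.0103), its inhibitor gene DDIT4 rose by 0.24 and SESN2, which senses leucine upstream of mTORC1, fell by 0.35 on the log2 scale. The DDIT4 call held without 1 library only where that was sgControl replicate 2, and not over all genes above 0 FPKM. That of GADD45A was likewise lost over all genes above 0 FPKM (adjusted p = 0.0584 by limma).

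**Figure D5:**
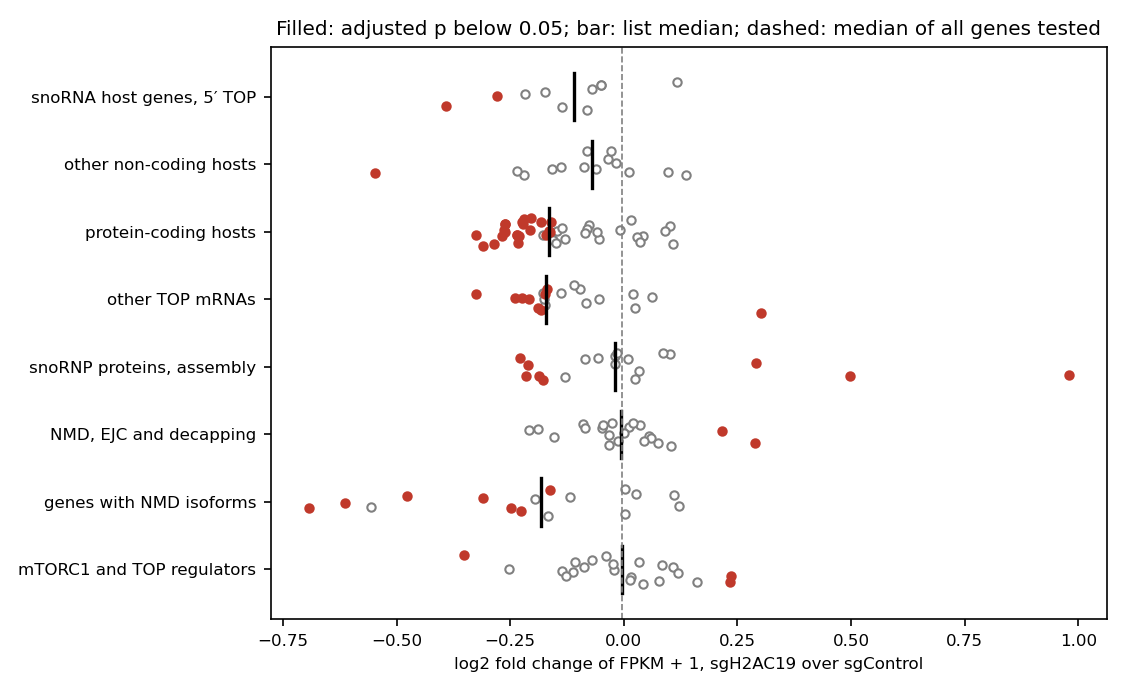
Log2 fold change of FPKM + 1, sgH2AC19 over sgControl (x axis), of every measured gene of each list (y axis), filled where the adjusted p was below 0.05, with a bar at the list median and a dashed line at the median of all genes tested. The median is −0.11 for the 10 host genes, −0.07 for other non-coding hosts and −0.16 for protein-coding hosts, and the 2 called host genes lie on the left. Fold changes of low genes are understated on this scale.

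Outside the lists, the 3 genes whose centred log2(FPKM + 1) values over the 6 libraries lay closest to the mean profile of the 10 hosts were USP36, a nucleolar deubiquitinase, B3GNT5, a glycolipid glycosyltransferase, and USF3, a transcription factor gene. Their root-mean-square differences from that profile were 0.0141, 0.0159 and 0.0162. None of the 3 passed the test, with log2 fold changes of −0.14, −0.14 and −0.13 (limma adjusted p from 0.145 to 0.243). They were picked by their values in these same libraries, so fold changes near that of the hosts' mean profile were fixed by the choice.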

How the data were processed

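Total RNA of 6 A549 samples was sequenced after mRNA library preparation (SMARTer chemistry, per the labels' protocols). The deposited table holds FPKM computed by the authors, 1 column per library, per the file headers; columns written sgH2AC and sgNC were taken as sgH2AC19 and sgControl, with their number as the replicate, and 0 columns were left unused. The sources used here name no aligner, counter, strand setting or annotation release. The submitters' processing notes name the mouse builds GRCm38 and mm10, but 58207 of the 62700 IDs are in human GENCODE 29 and 0 carry a mouse prefix. FPKM corrects for depth and length only, so a change in library composition can shift it.

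Values were analysed as log2(FPKM + 1) for the 12871 genes that reached 1 FPKM in 3 or more libraries, with limma 3.58.1 (R 4.3.3), a mean-variance trend, two-sided tests and Benjamini-Hochberg adjustment over all genes tested, at a threshold of 0.05. Fold changes on this scale understate those of low genes. Read totals and gene lengths were recovered from the steps of the FPKM and GENCODE 29, whole within 0.001 reads for 12869 of these genes, 3759 at the annotated length. Genes at 2 reads outnumbered genes at 1 read in each library (1772 to 1966 against 1028 to 1079); whether mates were counted singly was not tested, and counting errors cover reads only. Other steps used Python 3.11.15 with pandas 2.3.3.

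The 10 genes and all lists were chosen with earlier results of these data known. Named besides them are the target, up to 4 called genes of smallest adjusted p per list, measured neighbours and the 3 most alike genes; other genes, such as UPF1 and the genes sharing exons, were named after their values were seen. The test was checked on simulated data with the same spread beyond counting error for all genes, tighter than that of several host genes in sgH2AC19. Of 50 genes changed 1.25-fold there, 27 were called. How often a change of this size is found among the host genes was not tested.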

Additional observations from a re-analysis of the deposited data

How the results depend on the processing

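Alternatives were 2 scalings, 2 filters, a pseudocount of 0.1, voom on recovered reads, the replicate number as a block and 6 fits without 1 library. The 2 host genes called became 1 over all genes above 0 FPKM, and 1 to 3 without 1 library (1 without sgControl replicate 1 or 2, 3 without sgH2AC19 replicate 3). All genes called, 2967, became 1553 over all genes above 0 FPKM and 1513 to 3429 without 1 library, with the lowest counts without an sgControl library (1513, 1632 and 1663) and 1965 without sgH2AC19 replicate 2. Without 1 library the log2 fold change ran from −0.10 to 0.033 for ZFAS1, −0.13 to 0.077 for SNHG8, −0.13 to 0.029 for EPB41L4A-AS1 and −0.053 to 0.042 for SLC3A2. The sign reversed for all 4 without sgH2AC19 replicate 3 (0.00048 for SLC3A2) and for SNHG8 (0.0014) and SLC3A2 without sgControl replicate 2, where none was called. The cause was not tested. Over the host genes the alternatives that keep all libraries gave 67 results on the same side of the threshold, 2 gained calls, both of SNHG15, and 1 lost call, of SNHG6. Neither scaling moved the median of all genes by over 0.1. Deviations of same-numbered libraries correlated at 0.0346 to 0.0602, so the numbers were not taken as pairs, although each sgH2AC19 library correlated best with its own number; with the replicate block 3 host genes (SNHG15 at limma adjusted p = 0.0401) and 2729 genes were called, 2463 of them shared. With 3 libraries a group, the intervals of the 8 host genes not called still allow differences in both directions, except that of SNHG15.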
